A study of Mus musculus with 6 samples.

Results

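Glial and neural crest genes were followed in the epithelium and the mesenchyme of the mouse bladder neck and urethra at embryonic day 13. The set holds 7 genes, Sox10, Foxd3, Ednrb, Gfra3, Fabp7, S100b and Cdh19, of 18193 genes that have a probe set naming them alone. They were taken by name, with 12 probe sets in all, and each gene was read from its brightest probe set. Ednrb, Fabp7 and S100b were higher in mesenchyme than in epithelium with all 6 arrays, Ednrb by 14.5-fold, Fabp7 by at least 13.2-fold and S100b by at least 2.92-fold. Those for Fabp7 and S100b are lower bounds because neither gene was above background in epithelium. The other Ednrb probe sets differed less and did not pass with all arrays. The calls of Fabp7 and S100b ended when certain single arrays were left out. Without the array labelled mesenchyme 1, Gfra3 was also higher in mesenchyme, by 3.21-fold, and Cdh19 passed when every probe set was fitted without a filter on low signal. Foxd3 and Sox10 did not pass the threshold in either fit. The brightest Sox10 probe set read around the upper end of the signals of genes not transcribed in such tissue, and its layers overlapped. On another Sox10 probe set, the mesenchymal arrays other than mesenchyme 1 lay above every epithelial array, but it did not pass either.

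All samples were wild-type FVB/N embryos at Theiler stage 21, of unknown sex and not pooled per the labels. After 20 minutes in trypsin at 1 mg/ml, a needle was used to peel mesenchyme from epithelium, so both layers saw the enzyme. The epithelial arrays carry the numbers 1, 2 and 5 and the title word urothelium, and the mesenchymal arrays carry the numbers 1, 2 and 3. RNA was amplified in 2 rounds and hybridised to Affymetrix whole-genome mouse arrays. Separate embryos are not stated for the arrays, so p-values measure the spread between these samples, which may be technical.

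Neural crest cells leave the dorsal neural tube and give rise to peripheral neurons, glia and pigment cells. Those that reach the pelvis form the ganglia that innervate bladder and urethra, where Schwann cell precursors along nerves and satellite glia around neurons keep the transcription factor Sox10. In bulk tissue, fewer cells of a type and less RNA per cell cannot be told apart. Ednrb is also known from vascular and mesenchymal cells, so it is not restricted to glia, and S100b and Fabp7 are found in other cell types as well.

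The array labelled mesenchyme 1 stood apart, and results on the 7 genes are given with and without it. Of the other genes named here, those called with all arrays were also called in the same direction without it, apart from Dct, which was then not tested. Over all probe sets, which are not independent replicates, its normalized log2 values correlated at 0.860 and 0.848 with mesenchyme 2 and 3, which correlated with each other at 0.976. Of 8 markers of organs foreign to the lower urinary tract, the summed signal was 237820 on mesenchyme 1 and 458 to 1496 on the others, with layer differences of -3.58 for Alb (adjusted p = 0.383) and -3.91 for Cpb1 (adjusted p = 0.282). The epithelial genes, summed over 8 markers such as Epcam and Krt8, read 69214 on mesenchyme 1 against 11731 and 2381 on mesenchyme 2 and 3 and 157207 to 187453 on the epithelial arrays. Of these, Cldn4 alone passed with all arrays (2.24), with Epcam at 3.57 (adjusted p = 0.13) and Krt8 at 3.53 (adjusted p = 0.0987), and all 8 passed without mesenchyme 1. The mesenchymal markers, 9 genes of which Prrx1 (-3.29), Col1a2 (-3.23), Pdgfra (-2.36) and Col3a1 (-2.04) passed, summed to 149663 to 220438 on the mesenchymal arrays and 24749 to 43559 on the epithelial ones. Summed over each list, the markers thus matched the layer labels, apart from epithelial signal on mesenchyme 1 and, less, on mesenchyme 2. Of the 9 mesenchymal genes, 7 had every mesenchymal array above every epithelial one, as did 13.2% of all genes tested. Lum, named after its value had been seen, did not, at 1518 on mesenchyme 3 and 1975 on epithelium 2. Mesenchyme 2 correlated at 0.897 to 0.929 with the epithelial arrays, above its 0.860 with mesenchyme 1.

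The files give no detection calls. Probe sets of 70 odorant and pheromone receptor genes, which are read in sensory neurons of the nose, served as a guide to the signal of genes not transcribed here. The 95th percentile of their 78 probe sets lay between 127 and 232 signal units on the 6 arrays, and a value below it is called near background here. Signals are the deposited linear values. Differences are epithelium minus mesenchyme of log2(signal + 16) after quantile normalization. A negative value is higher in mesenchyme. A value after ± is the standard error (SE) in limma unless marked SD, and p-values are Benjamini-Hochberg adjusted over all genes tested. Where all epithelial arrays lay below the receptor percentile, a fold is a lower bound, the geometric mean of the mesenchymal signals over that of the epithelial percentiles. This scale understates the change of dim genes, and the brightness of different probe sets does not rank transcripts.

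**Figure D1:**
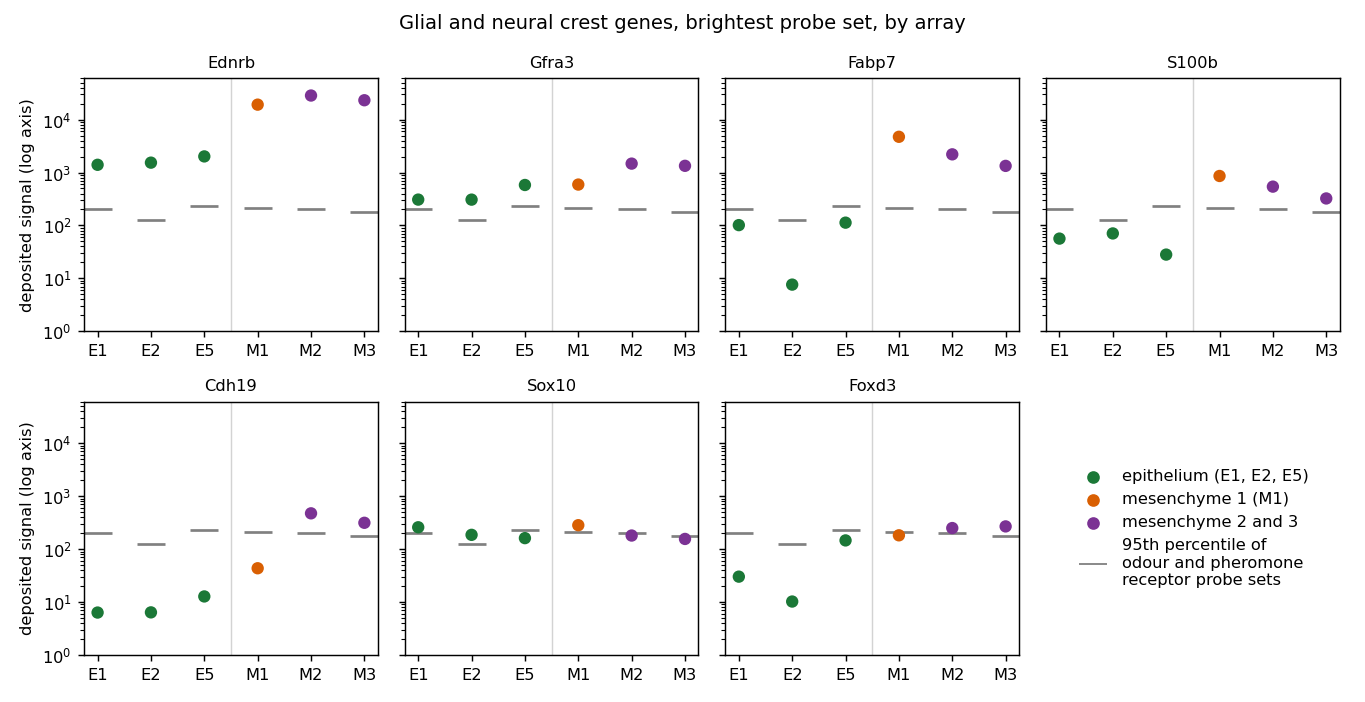
Deposited signal (log axis) of the brightest probe set of each gene on epithelial arrays (E1, E2, E5, green), mesenchyme 1 (M1, orange) and mesenchyme 2 and 3 (purple), with the 95th percentile of 78 receptor probe sets of each array as a grey dash. Ednrb, Fabp7 and S100b lie higher on all 3 mesenchymal arrays than on any epithelial array, while Sox10 stays near the dash throughout.

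The sequence just upstream of the start is shown for the 3 genes that passed with all 6 arrays, to place what was measured at its locus. The stretches are 250 bases before the RefSeq start on build GRCm38.p6, 5′ to 3′ on the gene's strand, and RefSeq promoter windows were matched for 4 of the 7 genes. Capitals mark ACAAT, a core bound by SOX proteins, searched on both strands together with its variant ACAAAG. Ednrb lies at chr14:103843702-103843951 on the minus strand, inside the annotated span of the gene (103814615 to 103844508). Fabp7 lies at chr10:57784673-57784922 and S100b at chr10:76253586-76253835, both on the plus strand.
Ednrb: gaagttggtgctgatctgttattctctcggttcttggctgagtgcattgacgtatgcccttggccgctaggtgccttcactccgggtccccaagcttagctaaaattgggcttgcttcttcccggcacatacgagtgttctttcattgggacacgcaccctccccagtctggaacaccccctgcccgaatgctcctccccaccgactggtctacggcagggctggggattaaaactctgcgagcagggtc
Fabp7: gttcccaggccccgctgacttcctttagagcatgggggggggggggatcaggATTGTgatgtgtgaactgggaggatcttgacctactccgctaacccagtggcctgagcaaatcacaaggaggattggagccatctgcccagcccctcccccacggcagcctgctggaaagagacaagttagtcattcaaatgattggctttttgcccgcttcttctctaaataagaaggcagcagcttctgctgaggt
S100b: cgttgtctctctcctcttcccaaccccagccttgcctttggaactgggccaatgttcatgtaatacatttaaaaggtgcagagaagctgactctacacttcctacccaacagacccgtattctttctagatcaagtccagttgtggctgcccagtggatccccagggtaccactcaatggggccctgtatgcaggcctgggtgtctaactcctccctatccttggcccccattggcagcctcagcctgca
The Fabp7 stretch held 1 match, to the first of these on the other strand, 198 to 194 bases before the start, and the Ednrb and S100b stretches held 0. Either motif was present in 38.8% of 32851 promoter stretches of the same length. The Ednrb stretch had 11 CG pairs, Fabp7 had 4 and S100b had 2, where the median of all stretches was 6.0. A match of letters is a description and not a bound site.

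Fitted without a filter on low signal, 3 of the 7 genes passed adjusted p 0.05 toward mesenchyme with all 6 arrays, where 2.75% of 18193 genes did. These were Ednrb, Fabp7 and S100b. Without mesenchyme 1, a fit chosen after seeing the data, Gfra3 and Cdh19 passed too, so 5 of 7 were called against 5.93% of all genes. The median difference of the 7 was -2.89 and -2.65 in these fits, beside 0.10 and 0.04 over all genes. The values below come from the fit of genes above a filter on low signal, which Cdh19 did not pass. In it 3 of 6 passed toward mesenchyme with all arrays (4.03% of 13717 genes tested), and 4 of 6 without mesenchyme 1 (8.17% of 13587). The epithelial means of Fabp7, S100b and Foxd3 lay below the filter, so these genes entered through mesenchyme and nothing is read from the counts of that fit. In limma without the filter, the adjusted p with all arrays was 0.0159 for Fabp7, 0.0405 for S100b and 0.189 for Foxd3. For the same genes it was 0.00831, 0.0323 and 0.089 without mesenchyme 1. All 3 mesenchymal arrays lay above all epithelial arrays for Ednrb, Fabp7, S100b and Foxd3 (13.2% of genes tested), and mesenchyme 2 and 3 did so for Gfra3 as well (22.3%). Cdh19, outside the filtered fit, did so too, with mesenchyme 1 near background. Both shares come from the filtered fit, so nothing is read from this comparison either.

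**Figure D2:**
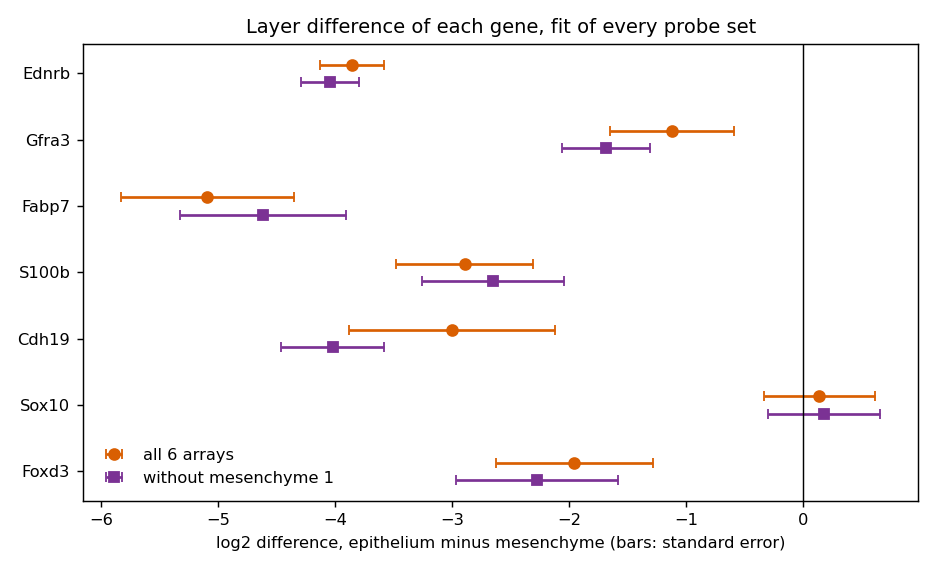
Difference of each gene between layers (epithelium minus mesenchyme, log2 scale, brightest probe set, bars are SE), fitted over every probe set without a filter, with all 6 arrays (orange circles) and without mesenchyme 1 (purple squares). Ednrb and Fabp7 lie farthest from 0 with all arrays, Gfra3 and Cdh19 move away from 0 without mesenchyme 1, and Sox10 lies at 0.14 and 0.18.

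Among the transcription factors, Sox10 marks the glial and pigment lineages of the neural crest and is needed for them. Its brightest probe set read 259, 186 and 161 on epithelium 1, 2 and 5 and 283, 181 and 156 on mesenchyme 1, 2 and 3. The layers overlapped and the values were 0.694 to 1.46 times the receptor percentile of their arrays. The difference was 0.14 ± 0.43 SE (adjusted p = 0.886), and 0.18 ± 0.43 (adjusted p = 0.853) without mesenchyme 1, with a sign that turned in some alternatives (-0.01 without normalization). A further Sox10 probe set gave another picture, at 21.4, 12.3 and 252 in epithelium and 133, 429 and 311 in mesenchyme. On it mesenchyme 2 and 3 lay above every epithelial array, epithelium 5 lay above mesenchyme 1, and epithelium 1 and 2 lay far below the rest. Its difference was -1.88 ± 0.91 (adjusted p = 0.424), or -2.49 ± 0.90 (adjusted p = 0.203) without mesenchyme 1 in the fit of every probe set. The last of the 3 probe sets read 6.05 to 52.1 on all arrays, near background on each. All 3 are of the kind whose name ends in _a_at, which can match several transcripts of a gene. No Sox10 probe set passed the threshold, and the brightest and the next differed in sign.

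Foxd3, a forkhead repressor that keeps crest cells in a multipotent and later glial state, has 1 probe set. It read 30.2, 10.2 and 146 on epithelium 1, 2 and 5 and 182, 250 and 269 on mesenchyme 1, 2 and 3. The layers did not overlap, although epithelium 5 came close to mesenchyme 1, and only mesenchyme 2 and 3 exceeded the receptor percentile, at 1.24 and 1.53 times it. The difference was -1.96 ± 0.69 (adjusted p = 0.171), and -2.28 ± 0.70 (adjusted p = 0.081) without mesenchyme 1.

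**Figure D3:**
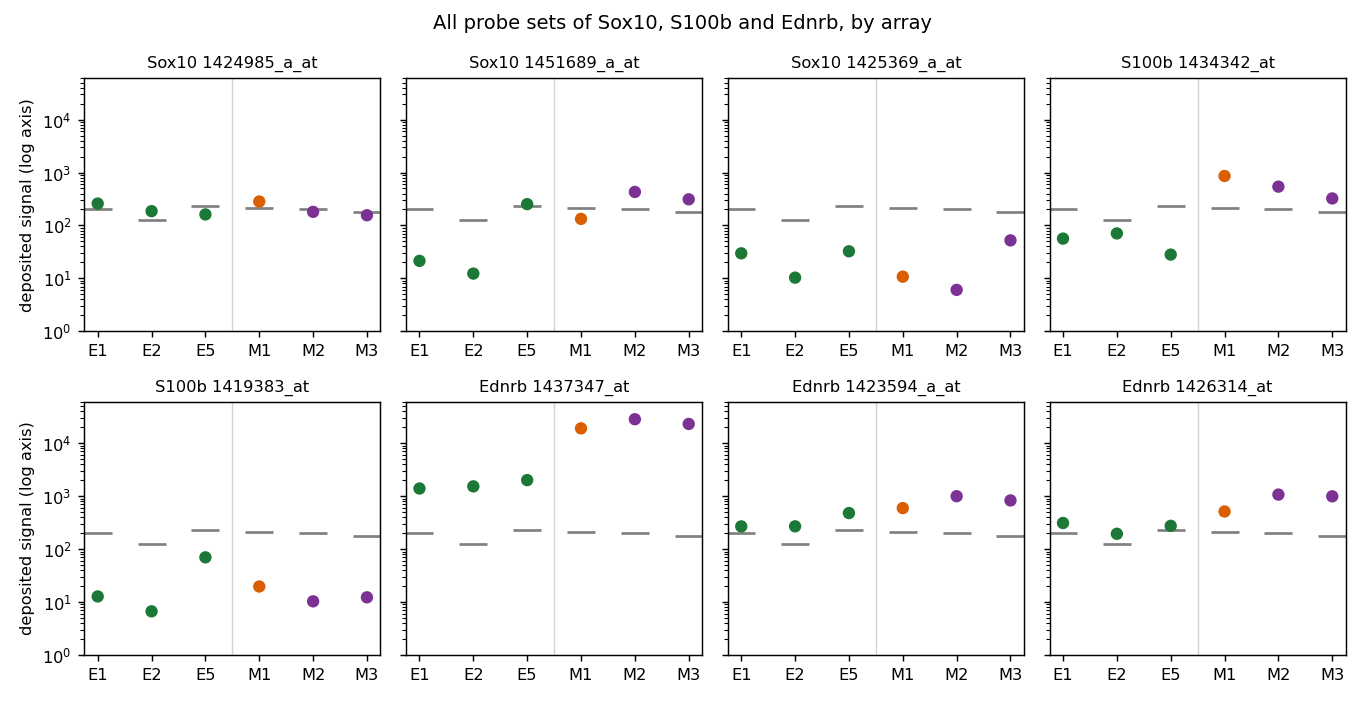
Deposited signal (log axis) of all 8 probe sets of Sox10, S100b and Ednrb on each array, with colours and grey dashes (95th percentile of receptor probe sets) as for the plot of single genes. Ednrb is higher on mesenchyme 2 and 3 than on epithelium on all 3 of its probe sets, whereas Sox10 differs from probe set to probe set.

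Ednrb, the endothelin receptor B that crest cells need to colonise the gut and skin, was the clearest of the receptors. Its brightest probe set read 1398, 1535 and 2015 on epithelium 1, 2 and 5 and 19172, 28515 and 23226 on mesenchyme 1, 2 and 3. Every mesenchymal array was far above every epithelial one, and the epithelial values were themselves 6.85 to 12.1 times the receptor percentile. On the log2 scale the means were 10.75 ± 0.34 in epithelium and 14.60 ± 0.32 in mesenchyme (SD, n = 3). The difference was -3.85 ± 0.29 SE (adjusted p = 0.00265), and -4.04 ± 0.27 (adjusted p = 0.000653) without mesenchyme 1. No single array ended the call when left out (adjusted p up to 0.028). The size depended on the probe set: the other two differed by -0.94 (adjusted p = 0.419) and -1.34 (adjusted p = 0.265), and the mean of all 3 by -2.04 (adjusted p = 0.0216). Without mesenchyme 1 these other probe sets differed by -1.28 (adjusted p = 0.124) and -1.84 (adjusted p = 0.0204).

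Gfra3 binds artemin and signals with Ret in sympathetic and sensory neurons and is also found in Schwann cell precursors. It read 307, 307 and 581 on epithelium 1, 2 and 5 and 592, 1472 and 1338 on mesenchyme 1, 2 and 3. Mesenchyme 2 and 3 were clearly above epithelium, while mesenchyme 1 was level with epithelium 5, and the normalized values of the layers overlapped. All 6 arrays exceeded the receptor percentile, by 1.51 to 7.62 times. The difference was -1.12 ± 0.52 (adjusted p = 0.296) with all arrays and -1.68 ± 0.35 (adjusted p = 0.0201) without mesenchyme 1.

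Fabp7, a fatty acid binding protein of radial glia and of Schwann cell precursors, has 1 probe set, at 101, 7.6 and 113 on epithelium 1, 2 and 5. On mesenchyme 1, 2 and 3 it read 4731, 2204 and 1334. The mesenchymal arrays were all above background, by 7.60 to 22.4 times the receptor percentile, and the epithelial arrays were all below it. The log2 means were 6.13 ± 1.16 in epithelium and 11.22 ± 0.99 in mesenchyme (SD, n = 3), a difference of -5.09 ± 0.73 SE (adjusted p = 0.011) whose size follows the offset (-5.61 with 1 and -4.29 with 64). Without mesenchyme 1 the difference was -4.62 ± 0.67 (adjusted p = 0.00478), a fold of at least 9.42. The call ended without epithelium 1 (adjusted p = 0.0506) or mesenchyme 2 (adjusted p = 0.0511).

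S100b, a calcium-binding protein of glia, read 56.3, 70.5 and 28.1 on epithelium 1, 2 and 5 and 860, 541 and 323 on mesenchyme 1, 2 and 3. The layers did not overlap, and again the epithelial arrays lay below the receptor percentile and the mesenchymal ones above it, at 1.84 to 4.07 times. The difference was -2.89 ± 0.56 (adjusted p = 0.0288), and -2.65 ± 0.59 (adjusted p = 0.0246) without mesenchyme 1, a fold of at least 2.30. The call ended without epithelium 1 (adjusted p = 0.121), epithelium 5 (0.087), mesenchyme 2 (0.13) or mesenchyme 3 (0.0669). In the fit of every probe set it missed the threshold as well (adjusted p = 0.0519, and 0.0515 without mesenchyme 1). The other S100b probe set read 6.66 to 69.9 and was near background on all 6 arrays, with a difference of 0.39 (adjusted p = 0.745).

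Cdh19, a cadherin of Schwann cell precursors and other crest-derived glia, was not tested over genes because its mean lay below the filter. Its probe set read 6.32, 6.37 and 12.7 on epithelium 1, 2 and 5 and 43.5, 474 and 314 on mesenchyme 1, 2 and 3. Mesenchyme 2 and 3 stood out at 2.35 and 1.79 times the receptor percentile, and the other 4 arrays were near background. Fitted over every probe set without a filter, the difference was -3.00 ± 0.88 (adjusted p = 0.162, where 1.72% of probe sets passed toward mesenchyme), and -4.02 ± 0.44 (adjusted p = 0.00444) without mesenchyme 1, where 3.83% of 34945 probe sets passed in that direction.

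Within the mesenchymal arrays the genes did not shift together. Relative to the mean of mesenchyme 2 and 3, mesenchyme 1 was higher by 1.59 log2 units for Fabp7 and 0.76 for S100b. It was lower for others, at -3.23 for Cdh19, -1.52 for Gfra3, -0.99 for Foxd3 and -0.52 for Ednrb, and stood at 0.12 for Sox10. Of 11 central nervous system and radial glia genes, the median on mesenchyme 1 was 1.85 above mesenchyme 2 and 3. Between the layers 1 of 7 tested passed, toward mesenchyme, where 4.03% of all genes did. That gene, Dcx of migrating young neurons, read 172 to 269 in epithelium and 9239, 2896 and 2741 on mesenchyme 1, 2 and 3 (-3.99 ± 0.57, adjusted p = 0.011), while Slc1a3, a glial glutamate transporter, differed by -1.41 (adjusted p = 0.115). The median of 14 autonomic neuron genes stood at -1.88 on the same scale. The part of central nervous system cells in the Fabp7 and S100b values of mesenchyme 1 was not tested.

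**Figure D4:**
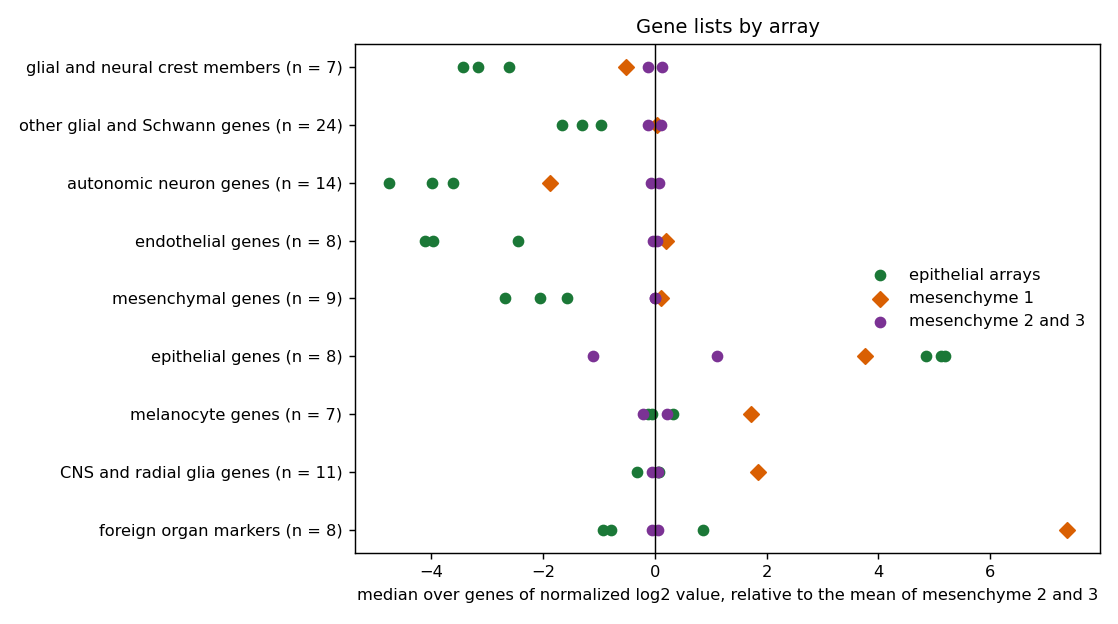
Median over the genes of each list of the normalized log2 value on each array, relative to the mean of mesenchyme 2 and 3 (x axis, log2 units), for epithelial arrays (green), mesenchyme 1 (orange diamond) and mesenchyme 2 and 3 (purple). The 7 glial and neural crest genes lie at -2.62 to -3.44 on the epithelial arrays and at -0.52 on mesenchyme 1, which stands at 7.37 for markers of foreign organs and at 3.76 for epithelial genes.

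Ligands and partners of these receptors were spread over both layers. Of 9 tested of a list of 11, 1 was higher in epithelium and 1 in mesenchyme with all arrays (1.95% and 4.03% of all genes). Without mesenchyme 1 the counts were 2 and 4 (6.37% and 8.17%). The medians were 0.08 with all arrays and -0.20 without mesenchyme 1. Edn1, an endothelin ligand, read 1610, 765 and 1261 on epithelium 1, 2 and 5 and 299.5, 190 and 205 on mesenchyme 1, 2 and 3, with no overlap (2.48 ± 0.36, adjusted p = 0.011). Edn3, the endothelin that acts through Ednrb on crest cells, read 308, 491 and 452 in epithelium and 452.5, 1685 and 1763 in mesenchyme. Mesenchyme 1 was at the level of epithelium. The difference was -1.09 (adjusted p = 0.419) with all arrays and -1.91 ± 0.35 (adjusted p = 0.011) without mesenchyme 1. Ece1, the enzyme that activates endothelins, differed by 0.08 (adjusted p = 0.937).

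For the Gfra family, Ret, the shared signalling receptor, read 1484 to 2774 in epithelium and 1217, 5602 and 4821 on mesenchyme 1, 2 and 3. Its difference was -0.50 (adjusted p = 0.692), and -1.25 (adjusted p = 0.033) without mesenchyme 1. Artn, the artemin gene, read 6.2 to 155 on all arrays and was near background on each. Gfra2, the neurturin receptor, was higher in mesenchyme (-2.04 ± 0.41, adjusted p = 0.0317), but read from its probe set of the unique kind it was at 0.11 (adjusted p = 0.904).

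Other glial and Schwann lineage genes went both ways. Of 24 on the array out of a list of 30, 22 were tested. With all arrays 3 passed toward mesenchyme and 2 toward epithelium (4.03% and 1.95% of all genes tested), with a median difference of -1.14. Without mesenchyme 1 the counts were 7 and 4 (8.17% and 6.37% of all genes), with a median of -1.21. The epithelial means of some of these genes, such as Gap43 and Ngfr, lay below the filter. They entered through mesenchyme, so nothing is read from these counts and medians. Gap43, a growth cone protein of neurons and immature Schwann cells, read 74.7, 61.8 and 38.0 in epithelium and 1525, 3625 and 3837 in mesenchyme (-5.08 ± 0.51, adjusted p = 0.00427). Pmp22, a myelin protein also made by fibroblasts, read 542 to 882 in epithelium and 15036 to 22184 in mesenchyme (-4.49 ± 0.33, adjusted p = 0.00265). Cnp, an enzyme of myelinating glia, was the third (-1.73, adjusted p = 0.0305) and was named after its value had been seen. Its call ended when its probe sets were averaged (-1.04, adjusted p = 0.114) and without any one array other than mesenchyme 1 (adjusted p = 0.0615 to 0.153).

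The other two called genes of that list were higher in epithelium and are also known outside glia. Sox2, a factor of neural progenitors and of foregut and other epithelia, differed by 2.63 ± 0.27 (adjusted p = 0.00431). Mbp, whose locus makes myelin basic protein and broader transcripts, differed by 2.41 ± 0.36 (adjusted p = 0.0126) on an _s_at probe set. As the mean of its probe sets it differed by -0.12 (adjusted p = 0.951). The Mbp call ended without epithelium 1 (adjusted p = 0.0859), epithelium 5 (0.0686) or mesenchyme 2 (0.0643). Ngfr, the low-affinity neurotrophin receptor of crest and glia, read 28.1, 35.4 and 34.3 in epithelium and 133, 379 and 327 in mesenchyme. These layers did not overlap, and the difference was -2.23 (adjusted p = 0.0997), or -2.83 ± 0.49 (adjusted p = 0.00914) without mesenchyme 1.

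Erbb3, the neuregulin receptor that Schwann cell precursors need, read 24800, 17141 and 25703 on epithelium 1, 2 and 5 and 11125, 9976 and 6578 on mesenchyme 1, 2 and 3. Every epithelial array lay above every mesenchymal one (1.20 ± 0.28, adjusted p = 0.0513, and 1.37 ± 0.25 with adjusted p = 0.0118 without mesenchyme 1). Of 4 neuregulin and Erbb genes tested, 0 passed in limma with all arrays. An unadjusted p under 0.05 was reached by 2 of them, and by 2670 of all 13717 genes tested. Erbb2, the partner of Erbb3, differed by 1.36 (adjusted p = 0.244).

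Of 10 neural crest specifiers tested out of 13, 1 passed toward mesenchyme and 1 toward epithelium (4.03% and 1.95% of all genes), and 8 passed in neither direction. Ets1 was higher in mesenchyme (-3.09 ± 0.60, adjusted p = 0.0293) and Tfap2a in epithelium (2.00 ± 0.32, adjusted p = 0.0152), and both factors act in tissues other than the crest. The median was -0.22, and without mesenchyme 1 the counts were 3 in mesenchyme and 2 in epithelium (8.17% and 6.37% of all genes).

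Neurons, vessels and pigment cells were followed beside the glial genes. Of 14 autonomic neuron genes, 7 passed toward mesenchyme and 1 toward epithelium (4.03% and 1.95% of all genes tested), with a median of -3.47. Without mesenchyme 1 the counts were 11 and 1 (8.17% and 6.37%). The epithelial means of some, such as Prph and Snap25, lay below the filter. They entered through mesenchyme, so nothing is read from these counts. Among the autonomic neuron genes called were Stmn2, Snap25, Prph and Nefl, which encode neuronal cytoskeletal and synaptic proteins. Stmn2, Snap25 and Prph were below the receptor percentile on all epithelial arrays and at least 70.5-fold, 25.7-fold and 15.1-fold higher in mesenchyme (Prph at least 33.7-fold without mesenchyme 1), and Nefl differed by -4.70 ± 0.65 (adjusted p = 0.00994). With all arrays Phox2a, Hand2, Dbh and Chrna3 did not pass (adjusted p = 0.316, 0.0805, 0.324 and 0.100). They passed toward mesenchyme without mesenchyme 1. Th differed by 0.95 (adjusted p = 0.467), and Gata3 was the gene higher in epithelium (2.45, adjusted p = 0.0249). These genes were named after their values had been seen. The summed signal of the autonomic list was 9809 to 13092 on epithelial arrays and 36707, 91025 and 80375 on mesenchyme 1, 2 and 3. Of 7 endothelial genes tested, 4 passed with more signal in mesenchyme (Cdh5, Cldn5, Kdr and Tek, at -4.52 to -3.43), beside 4.03% of all genes. The endothelial list summed to 954 to 1922 in epithelium and 16988 to 21149 in mesenchyme. The glial and neural crest set itself summed to 2123 to 3056 in epithelium and 25862 to 33637 in mesenchyme, most of it from the brightest Ednrb probe set. The part of endothelial cells in the Ednrb difference was not tested.

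Of 5 melanocyte genes tested, Dct passed (-4.77, adjusted p = 0.035), reading 9.16 to 22.4 in epithelium and 4279, 335 and 369 on mesenchyme 1, 2 and 3. It passed the filter through mesenchyme, mostly mesenchyme 1, was not tested without that array, and lost the call with an offset of 64 (adjusted p = 0.0709). Kit differed by 1.14 (adjusted p = 0.12) and Mitf by -1.16 (adjusted p = 0.301), and Mlana read at most 17.4 on all arrays. The list summed to 12230 on mesenchyme 1 and to 2342 to 4037 elsewhere.

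Genes whose pattern over the 6 arrays was most like that of the set were sought among 4859 tested genes ranging over at least 2 log2 units. Nearest to the mean standardized profile of the 6 genes were A930009L07Rik (r = 0.997), Rgs4 (0.996), Rcn3 (0.996), Ncald (0.992) and Stmn4 (0.992), each higher in mesenchyme. In all, 471 genes exceeded r = 0.9 with this profile. Nearest to the brightest Sox10 probe set were Srrm4os (0.959), Rwdd3 (0.957), 4930417H01Rik (0.955), Il18rap (0.952) and Cd37 (0.943). These read 34.3 to 557 signal units and none differed between layers at the threshold (adjusted p of 0.896 or more). The correlations describe 6 arrays that share a layer contrast and carry no test.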

How the data were processed

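The 6 arrays were 3 of epithelium and 3 of mesenchyme. The authors deposited linear probe set intensities, 1 per array. Their software was GCOS per the submitters' processing notes, with version and settings not given in the sources used here. The mean without the top and bottom 2% of probe sets was 1500 on each array. Of 45101 probe sets, 64 controls were left out, and 34945 name 1 gene by the platform annotation, 932 several and 9160 none. Intensities were taken as log2(signal + 16) and quantile normalized. A gene was read from its brightest probe set and tested if the mean of that set exceeded the 40th percentile. Limma 3.58.1 in R 4.3.3 compared the layers (intensity trend, no covariate, Benjamini-Hochberg over 13717 genes, threshold 0.05). The code was tested on simulated data. The members, 12 gene lists and alternatives were chosen with earlier results of these data known. Named by rule are all members, the 4 largest called genes of each list or its 2 brightest members where fewer passed, certain ligands and receptors, and the 5 genes most like each of 2 profiles. Some genes under this rule are not reported here. The array table names no build, and coordinates are those of RefSeq on GRCm38.p6.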

Additional observations from a re-analysis of the deposited data

How the results depend on the processing

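Offsets of 1 and 64, no normalization, median centring, other filters, other choices of probe set and other variance models left 2 or 3 of the members past the threshold, against 3 as reported. Array quality weights, whose iteration ended before it converged, took 5 members, 16 other glial genes and 5109 genes of all (2511 toward mesenchyme) past it, and without normalization 8 other glial genes passed, against 5. The members' median of -2.42 became -1.77 with an offset of 64 and -3.85 with the filter at the 60th percentile, which left 3 members. The median of all genes moved from 0.12 to 0.23 with median centring, which is not subtracted here. Mbp was at -0.12 as the mean of its probe sets and Gfra2 at 0.11 on probe sets of the unique kind, both opposite to the reported sign. With array quality weights Snai2 stood at -0.54 (0.13 as fitted without weights) and Pmel at 1.08 (-0.49), neither past the threshold without weights. Over the list genes and the genes of like pattern, 1687 of 1995 single-gene values kept sign and side of the threshold, 141 lost the call and 115 gained it. The sign turned in 52, in 48 of which neither value was past the threshold (3 of them for Sox10), and the other 4 are those just given.

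Leaving out each array in turn gave 142 (without epithelium 1) to 1975 (without mesenchyme 1) genes past the threshold, 115 to 1110 toward mesenchyme, 1 to 4 members, 3 to 11 other glial genes and a members' median of -3.15 to -2.35. The replicate numbers 1 and 2 occur in both layers, and arrays of the same number did not deviate together (correlations of -0.02 and 0.03 over probe sets). Pairs of unlike numbers lay at -0.04 to 0.04. These values cannot show whether a shared number marks the same embryo. With that replicate number as a block, limma called 0 of 13717 genes, 0 of them toward mesenchyme, 0 members and 0 other glial genes at adjusted p 0.05, and 1460 genes, 4 members and 10 other glial genes at an unadjusted p under 0.05. Only the pairs numbered 1 and 2 inform the layer difference in that fit, and the first holds mesenchyme 1. The remaining arrays have no partner of the same number. So few pairs leave little spread to test against, and nothing is concluded from the missing calls. The number of arrays and signals near background limit Sox10, Foxd3, Cdh19 and the dimmer S100b probe set.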
